A study of Bos grunniens and Bos grunniens x Bos taurus with 12 samples.

Results

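Ribosome footprints of yak testis at 18 months were compared with those at 6 months. All 3 libraries of each age were used, chosen by the age in their titles, which made 6 of the 12 libraries of the series. Each library came from 1 male yak (Bos grunniens), and per the labels all the animals came from the same cooperative, with no treatment or genotype that distinguished the groups. The labels place the animals of 6 months in a juvenile stage and those of 18 months at puberty, and the remaining libraries of the series were from yaks and cattle-yak hybrids of 4 years. In Ribo-seq the sequenced fragments are the stretches of mRNA covered by a ribosome, so a level here is the amount of a gene's mRNA that was being translated. The amount of mRNA and the number of ribosomes on it were not separated, since RNA-seq was not analysed here. The tissue was testis ground without separation of its cells, in which fewer cells of a type and less RNA per cell cannot be told apart.

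In the testis, spermatogonia divide in the seminiferous tubules, enter meiosis as spermatocytes, and then differentiate through round and elongating spermatids into sperm. Each step uses a largely distinct set of genes, such as the synaptonemal complex genes of early meiosis, the acrosome genes of round spermatids, and the transition proteins and protamines that replace histones in elongating spermatids. Sertoli cells support the germ cells inside the tubules, peritubular myoid cells surround the tubules, and Leydig cells between the tubules make androgens from cholesterol. Puberty is the period in which the first germ cells pass through these steps.

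Libraries of 6 months held 25816963 to 37167651 counts on genes, and those of 18 months held 21309151 to 24542362. Of 20965 genes, 14874 had enough counts in at least 3 of the 6 libraries to be tested. The libraries of 6 months resembled each other, with Pearson's correlations of log2 CPM, the count scaled to library size over the tested genes of 0.944 to 0.96. The libraries of 18 months resembled each other less. Library 1 and library 2 correlated at 0.836, library 1 and library 3 at 0.931, and library 2 and library 3 at 0.877. The mean correlation with the libraries of 6 months was 0.929 for library 1, 0.872 for library 3 and 0.775 for library 2. The SD of log2 CPM had a median over genes of 0.277 at 6 months and 0.465 at 18 months, and it was the larger at 18 months in 10584 genes (71.2%). The biological coefficient of variation estimated by edgeR within each age was 28.6% and 54.4%. A range of at least 8-fold between libraries was found in 980 genes at 18 months and in 396 genes at 6 months.

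Against this spread, 10 genes were called by edgeR's quasi-likelihood test, with p-values adjusted by Benjamini-Hochberg over all tested genes, a threshold of 0.05 and a change of 2-fold or more. The 3 that rose (0.0202% of the genes tested) were EMB and a pair of genes without a symbol, and the 7 that fell (0.0471%) were COL6A6, COL6A5, FBLN7, IGFBP3, C7, RDH10 and GALR1. At an unadjusted p under 0.05 there were 2125 genes higher and 1712 lower at 18 months, and 1131 genes with a change of at least 2-fold had an adjusted p between 0.05 and 0.10. With the same filter, DESeq2, which gave 295 genes no adjusted p, called 1061 genes higher and 807 lower. Limma voom with sample quality weights called 1210 and 1213. Its weights were 0.391, 0.336 and 1.78 for libraries 1, 2 and 3 of 18 months, so library 3 counted most at that age. At 6 months they were 0.923, 2.49 and 1.86. Without library 1 of 18 months, edgeR itself called 1344 genes higher and 1249 lower, without library 2 it called 34 and 42, and without library 3 it called 1 and 0. Without library 1, library 2 or library 3 of 6 months it called 0, 0 and 1 genes, the 1 being outside the 10. Scaling by library size alone in place of TMM, which moved the median log2 fold change of all genes by 0.37, gave 104 genes higher and 49 lower, and the upper quartile gave 79 and 51, so that the share of calls that were higher was 68% and 60.8% in place of 30%. All 10 genes were also called by DESeq2, by limma voom, without library 1 of 18 months and without library 2 of 18 months. Levels are given as FPKM, the authors' count per gene length and library total, and since it carries no TMM factor a fold change can depart from the ratio of FPKM values.

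EMB encodes embigin, a cell surface glycoprotein of the immunoglobulin superfamily that accompanies monocarboxylate transporters. Its FPKM values were 2.97, 3.25 and 3.42 at 6 months and 45.7, 58.6 and 66.3 at 18 months, which made a log2 fold change of 3.81 ± 0.21, where ± gives the standard error, with an adjusted p of 0.00397 by edgeR's quasi-likelihood test. The 3 animals of 18 months differed from each other by at most 0.281 on the log2 CPM scale, and the lowest of them was 12.1 times the highest animal of 6 months. ENSBGRG00000015947, described in the table as an NKG2D ligand 3-like gene, had counts of 11, 23 and 12 at 6 months and 323, 193 and 341 at 18 months (log2 fold change 4.32 ± 0.41, edgeR adjusted p = 0.0274). ENSBGRG00000016789, described as a low-quality model of a phosphopantetheinyl transferase-like gene, had counts of 0, 0 and 0 at 6 months and 226, 142 and 232 at 18 months. It had no count in any library of 6 months and was present in each library of 18 months. Set against a floor of 3 counts over the group of 6 months, its level at 18 months was at least 214-fold higher (edgeR adjusted p = 0.0406). A gene of the same description, ENSBGRG00000021208, had 1997 to 4007 counts in each of the 6 libraries, so the reads of the pair could be shared between them and the value is uncertain.

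Of the genes that fell, COL6A6 and COL6A5 encode alternative chains of collagen VI. COL6A6 had FPKM values of 7.41, 8.99 and 9.97 at 6 months and 0.23, 0.59 and 0.25 at 18 months, and its log2 fold change was -5.0 ± 0.39 (edgeR adjusted p = 0.0188). For COL6A5 the values were 3.79, 3.51 and 7.0 at 6 months and 0.38, 0.24 and 0.36 at 18 months, with a log2 fold change of -4.18 ± 0.39 (edgeR adjusted p = 0.0274). In both genes all 3 animals of 18 months were far below all 3 animals of 6 months. FBLN7, a fibulin of the extracellular matrix, had counts of 585, 864 and 645 at 6 months and 76, 37 and 49 at 18 months (log2 fold change -3.59 ± 0.38, edgeR adjusted p = 0.0406). IGFBP3, the main carrier of insulin-like growth factors in blood and a local regulator of them in tissues, had FPKM values of 199, 243 and 287 at 6 months and 20.1, 12.5 and 30.0 at 18 months (log2 fold change -3.87 ± 0.36, edgeR adjusted p = 0.0274). C7, a component of the terminal complement complex, had FPKM values of 192, 166 and 177 at 6 months and 40.8, 42.1 and 52.2 at 18 months (log2 fold change -2.35 ± 0.23, edgeR adjusted p = 0.0295). These 2 genes kept their groups apart in every pair of animals, by 9.99-fold and 4.02-fold at the closest.

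RDH10 encodes the retinol dehydrogenase that begins the synthesis of retinoic acid, the signal for germ cells to differentiate and to enter meiosis. Its FPKM values were 176, 156 and 165 at 6 months and 32.3, 31.3 and 31.2 at 18 months, a log2 fold change of -2.75 ± 0.21 with an edgeR adjusted p of 0.0188. The 3 values at 18 months were nearly equal, while the same 3 animals differed widely in their germ cell genes. GALR1, a receptor of the neuropeptide galanin, had counts of 162, 282 and 327 at 6 months and 11, 7 and 12 at 18 months (log2 fold change -4.56 ± 0.40, edgeR adjusted p = 0.0274). All 10 genes lay at least 2-fold apart in every pair of libraries, and their ranges at 18 months were small for the size of their changes. The test sets a change against the spread within the ages, so it selects for both traits.

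**Figure D1:**
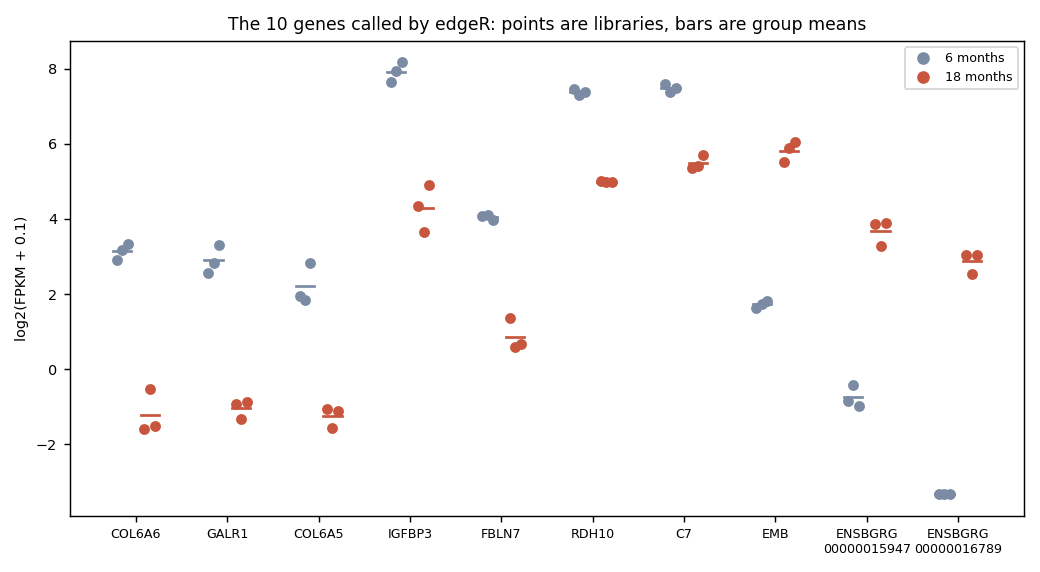
Ribosome footprint level of the 10 genes that passed edgeR's test, as log2(FPKM + 0.1), with 1 point per library and a bar at the mean of these log2 values in each group. In each gene the 3 libraries of 18 months lie wholly above or wholly below the 3 libraries of 6 months, and a gene with no count lies at the lowest level drawn.

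The next question was which genes were consistent in all 3 animals whether or not they passed the test. A gene was taken as separated when each library of 18 months was at least 2-fold above, or below, each library of 6 months on the TMM-scaled log2 CPM scale. There were 456 such genes higher at 18 months (3.07% of those tested) and 222 lower (1.49%), of which 99 and 35 were separated by at least 4-fold. The groups did not overlap, at any distance, in 2521 genes that were higher (16.9%) and 2476 that were lower (16.6%). Of the separated genes, 387 of the higher and 199 of the lower had an edgeR adjusted p under 0.10, while 3 and 7 had one under 0.05. DESeq2 called 396 of the 456 and 210 of the 222, and limma voom, which gave libraries 1 and 2 of 18 months low weights, called 421 and 204. Library 1 of 18 months set these counts more than any other, since without it 1229 genes were separated upwards and 956 downwards, and without library 1 or library 2 of 6 months 710 and 801 were separated upwards. With library size alone, 136 genes in place of 222 were separated downwards.

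**Figure D2:**
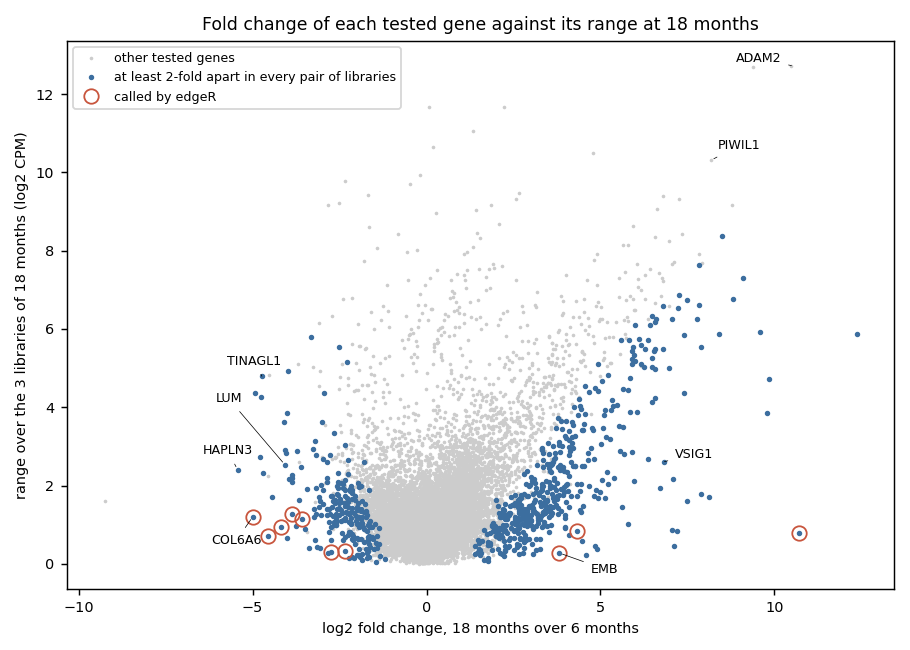
Fold change of each tested gene (horizontal axis, log2 of 18 months over 6 months) against its range over the 3 libraries of 18 months (vertical axis, log2 CPM). Blue points are the 456 and 222 genes at least 2-fold apart in every pair of libraries. Rings mark the 10 genes called by edgeR, which have the large changes and small ranges that the test selects for. A gene with no count at 6 months is placed on the horizontal axis by the prior count of the fit.

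Among the separated genes that had a symbol and lay above the median level, the widest gaps upwards were those of VSIG1, EMB, RADX, SOHLH2, GNAL, NDRG4, CLDN11, STAG3, TKTL1 and TUBA3D, which were picked by the gap itself and are given as a description. A gene without a symbol, ENSBGRG00000015536, had a wider gap than any of them, with counts of 0, 2 and 1 at 6 months and 182, 11585 and 5100 at 18 months. VSIG1, a junctional adhesion protein of the immunoglobulin superfamily, had FPKM values of 1.51, 0.84 and 2.07 at 6 months and 51.5, 379.8 and 246 at 18 months. Its log2 fold change was 6.84 ± 0.81 with an edgeR adjusted p of 0.0533. RADX, a single-stranded DNA binding protein that acts at replication forks, had FPKM values of 0.34, 1.39 and 0.35 at 6 months and 12.9, 32.9 and 49.5 at 18 months. TKTL1, a transketolase-like gene, had 7.29, 20.1 and 7.44 at 6 months and 78, 169 and 227 at 18 months. In each of these genes library 1 was the lowest of the 3 libraries of 18 months and was still far above all the libraries of 6 months. Other genes of the germ line, chosen after their values were seen, were separated at lower counts. BRDT, the testis-specific bromodomain protein that reads acetylated histones, had counts of 4, 2 and 2 at 6 months and 34, 1722 and 167 at 18 months. CTCFL, the germ cell paralogue of the insulator protein CTCF, had 0, 8 and 6 at 6 months and 35, 726 and 464 at 18 months. NLRP14, a germ cell member of the NLR family, had 5, 17 and 12 at 6 months and 111, 212 and 351 at 18 months. The last of these was highest in library 3, whereas the first pair was highest in library 2.

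Under the same limits, the widest gaps downwards were those of COL6A6, HAPLN3, IGFBP3, COL6A5, CHRD, FAT2, TINAGL1, LUM, CAPN6 and RDH10. HAPLN3, a link protein that joins hyaluronan to proteoglycans, had FPKM values of 34.7, 72.4 and 41.5 at 6 months and 2.45, 0.55 and 1.11 at 18 months (log2 fold change -5.43 ± 0.67, edgeR adjusted p = 0.0533). CHRD encodes chordin, a secreted antagonist of bone morphogenetic proteins, and had 40.3, 28.4 and 21.8 at 6 months and 2.75, 0.84 and 0.64 at 18 months. LUM, the small leucine-rich proteoglycan lumican, had 654, 425 and 437 at 6 months and 75.4, 15.7 and 18.9 at 18 months. In these genes libraries 2 and 3 lay well below library 1, which itself lay well below the libraries of 6 months. LYVE1, a hyaluronan receptor of lymphatic endothelium and tissue macrophages, differed from this order, with counts of 98, 109 and 97 at 6 months and 14, 13 and 14 at 18 months, nearly equal in the 3 animals of 18 months (edgeR adjusted p = 0.0533, DESeq2 adjusted p = 7.59e-07).

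Each animal of 18 months was then set on its own against all 3 animals of 6 months, over the 17164 genes with at least 10 counts in any of the 6 libraries. Library 1 had 754 genes at least 2-fold above every library of 6 months (4.39%) and 439 at least 2-fold below (2.56%). Library 3 had 1699 above (9.9%) and 1361 below (7.93%), and library 2 had 4180 above (24.4%) and 1791 below (10.4%). Of 4767 genes above in any of the 3, 2842 were above in library 2 alone, 777 in libraries 2 and 3, and 455 in all 3. Of 2305 genes below in any, 811 were below in library 2 alone, 708 in libraries 2 and 3, and 224 in all 3. The genes that were lower were therefore shared between libraries 2 and 3 for a larger part (30.7%) than the genes that were higher (16.3%), a description over genes with no test. With library size alone in place of TMM, 897 genes were below in library 2, and 2719 were above and 799 below in library 3.

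**Figure D3:**
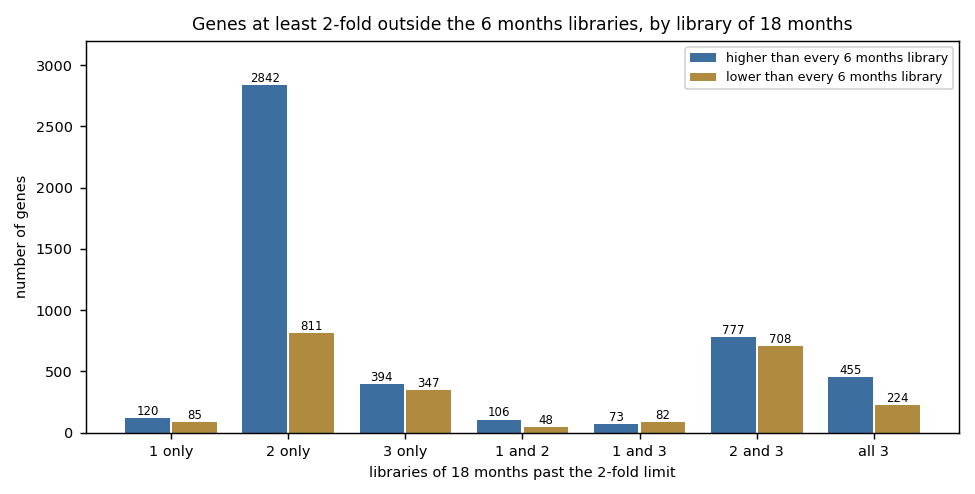
Number of genes at least 2-fold above (blue) or below (brown) all 3 libraries of 6 months, by which of the 3 libraries of 18 months passed that limit. The tallest bar is the 2842 genes higher in library 2 alone, and 455 genes were higher and 224 lower in all 3.

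Genes of spermatogonia were among those that were higher in all 3 animals. Counts of list members at least 2-fold above the libraries of 6 months are to be read against 4.39%, 24.4% and 9.9% of all genes in libraries 1, 2 and 3, those below against 2.56%, 10.4% and 7.93%, and those separated in every pair against 3.07% upwards and 1.49% downwards. Of the undifferentiated spermatogonia list, 14 of 16 genes were in the table and 12 passed the filter, none was called by edgeR, and NANOS3, ID4 and SALL4 were separated upwards. DESeq2 called 6 higher (7.13% of all tested genes were) and 2 lower (5.43%). NANOS3, an RNA-binding protein that keeps germ cells alive, had counts of 13, 6 and 4 at 6 months and 88, 152 and 180 at 18 months (log2 fold change 4.09 ± 0.68, edgeR adjusted p = 0.0533, DESeq2 adjusted p = 1.18e-07). ID4, a transcriptional inhibitor of the stem cell pool, had 75, 138 and 67 at 6 months and 290, 480 and 934 at 18 months, with library 3 the highest. UCHL1, a ubiquitin hydrolase abundant in spermatogonia, had FPKM values of 229.8, 303 and 191 at 6 months and 553, 759 and 1524 at 18 months (edgeR adjusted p = 0.0831), without overlap between the ages. Some members of the list were lower at 18 months or overlapped. GFRA1, the receptor of the stem cell factor GDNF, had counts of 363, 411 and 209 at 6 months and 156, 64 and 140 at 18 months (edgeR adjusted p = 0.136), and RET, its partner, had 399, 509 and 250 at 6 months and 559, 440 and 708 at 18 months. ETV5, a transcription factor downstream of GDNF, had FPKM values of 4.91, 8.32 and 4.79 at 6 months and 15.3, 19.4 and 32.7 at 18 months (edgeR adjusted p = 0.0689), and TSPAN33, a tetraspanin, had 53, 43.2 and 47.3 at 6 months and 38.4, 17.6 and 14 at 18 months (edgeR adjusted p = 0.14), so that this pair lay apart from 6 months in opposite directions without a 2-fold gap in every pair. ZBTB16, the zinc finger factor of the stem cell pool, had 3.36, 3.76 and 3.35 at 6 months and 8.11, 12.2 and 15.7 at 18 months (edgeR adjusted p = 0.0589, DESeq2 adjusted p = 1.03e-04), higher without overlap. FGFR3, EOMES and PIWIL4 were called by none of edgeR, DESeq2 and limma voom, and NANOS2 and LHX1 did not pass the filter. The median log2 fold change of the tested members was 1.47, against 0.05 over all tested genes.

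Of the differentiating spermatogonia list, 11 of 14 genes were in the table and 9 were tested, and DMRTB1, SOHLH1, SOHLH2 and DAZL were separated upwards. DMRTB1, which governs the choice between mitosis and meiosis, had counts of 2, 10 and 1 at 6 months and 77, 534 and 402 at 18 months (log2 fold change 6.38 ± 0.98, edgeR adjusted p = 0.0533). SOHLH1 and SOHLH2 are transcription factors of spermatogonial differentiation. SOHLH2 had counts of 21, 98 and 37 at 6 months and 342, 1521 and 1140 at 18 months, and SOHLH1 had FPKM values of 0.76, 1.72 and 0.26 at 6 months and 8.49, 16.3 and 24.3 at 18 months. Both were low in library 1 relative to libraries 2 and 3, and above all the animals of 6 months. DAZL, an RNA-binding protein that licenses germ cells for gametogenesis, had FPKM values of 5.2, 14.6 and 3.66 at 6 months and 48.4, 220.0 and 180.2 at 18 months, so that library 1 was also above all the animals of 6 months. DMRT1, a regulator of both germ and Sertoli cells, had 47.4, 81.9 and 59.7 at 6 months and 167, 224 and 395 at 18 months (edgeR adjusted p = 0.0596). KIT, the receptor that marks differentiating spermatogonia and is also made by Leydig cells, had 77.5, 49.7 and 42.9 at 6 months and 53.8, 53.5 and 45 at 18 months, with overlapping groups. STRA8, which retinoic acid induces before meiosis, had counts of 11, 35 and 28 at 6 months and 13, 161 and 35 at 18 months, high in library 2 and within or near the range of 6 months in the other animals (edgeR adjusted p = 0.279). SPOCD1 and DNMT3B had edgeR adjusted p of 0.15 and 0.183, and UPP1 and PRSS21 did not pass the filter.

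Early meiotic genes were higher in libraries 2 and 3, and a smaller set was higher in library 1 as well. The list had 28 of 37 genes in the table, of which 11 were at least 2-fold above every library of 6 months in library 1, 26 in library 2 and 22 in library 3. None of the 26 tested members was called by edgeR, 11 were separated upwards, 21 were called higher by DESeq2 (7.13% of all tested genes were) and 18 by limma voom (8.14%). Without library 1 of 18 months, edgeR called 22 of the 27 then tested (8.7% of all genes then tested), with a filter that asked for counts in fewer libraries. The median log2 fold change was 3.34, and 1.98 with limma on log2(FPKM + 1). SYCP3, of the synaptonemal complex that joins homologous chromosomes, had FPKM values of 0.51, 1.84 and 1.09 at 6 months and 5.89, 76.3 and 43.3 at 18 months (log2 fold change 4.78 ± 0.92, edgeR adjusted p = 0.0596). STAG3, the meiotic cohesin subunit, had 0.65, 0.92 and 0.34 at 6 months and 3.64, 48.7 and 17.9 at 18 months. SPO11, the enzyme that makes the DNA breaks of recombination, had 0.25, 0.71 and 0.35 at 6 months and 1.64, 5.44 and 2.33 at 18 months. In all 3 genes library 1 lay above every animal of 6 months, and library 2 was the highest. TEX11, an X-linked gene needed for synapsis, had footprints in every library, with 16.6, 23 and 13.2 at 6 months and 42.5, 127 and 112 at 18 months. SMC1B, a meiotic cohesin subunit, had 0.45, 2.02 and 0.86 at 6 months and 3.03, 63.2 and 12 at 18 months, and TEX15, a germ cell gene of meiosis and transposon silencing, had 4.6, 4.69 and 3.11 at 6 months and 6.29, 23.6 and 8.76 at 18 months. Library 2 was the highest in each of these, and in TEX15 libraries 1 and 3 were close to the level of 6 months. HORMAD1, of the chromosome axis, had 123, 138 and 183 at 6 months and 163, 195 and 168 at 18 months with overlapping groups (log2 fold change -0.05 ± 0.20, edgeR adjusted p = 0.883). MEIOC, which lets germ cells complete meiotic prophase, had counts of 0, 0 and 0 at 6 months and 8, 1393 and 55 at 18 months and did not pass the filter.

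The piRNA pathway, which silences transposons in germ cells, was also higher in libraries 2 and 3 and, for fewer members, in library 1. All 21 genes found of 24 were tested and had a positive log2 fold change, with a median of 3.50, or 2.21 without library 2 of 18 months. None was called by edgeR, 10 were separated upwards (3.07% of all tested genes were), DESeq2 called 14 of the 18 with an adjusted p higher (7.13%), and limma voom called 15 (8.14%). Without library 1 of 18 months edgeR called 16 (8.7%). Members at least 2-fold above all the libraries of 6 months numbered 11 in library 1, 18 in library 2 and 17 in library 3. PIWIL2, an Argonaute protein of spermatogonia and spermatocytes, had FPKM values of 4.34, 4.75 and 1.69 at 6 months and 14.4, 36.5 and 36.7 at 18 months (edgeR adjusted p = 0.0596). MAEL, of the germ cell nuage, had 1.98, 5.37 and 2.01 at 6 months and 15.5, 80.6 and 41.9 at 18 months. TDRD9, a helicase of the pathway, had 1.11, 2.52 and 0.74 at 6 months and 8.49, 70.5 and 20.6 at 18 months. Both were lowest in library 1 and highest in library 2, and so was FKBP6, a co-chaperone of the pathway, with 6.23, 18.1 and 4.66 at 6 months and 27.3, 369 and 58.4 at 18 months. PIWIL4, which acts in fetal germ cells and spermatogonia, had 0.65, 1.76 and 0.98 at 6 months and 4.02, 1.76 and 4.06 at 18 months, so that library 2 was the lowest of its group and no higher than the highest animal of 6 months. PIWIL1, the Argonaute protein of pachytene spermatocytes and round spermatids, had 0.27, 0.22 and 0.04 at 6 months and 0.13, 206.3 and 0.98 at 18 months, high in library 2 and close to the level of 6 months in library 1 (edgeR adjusted p = 0.131).

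From pachytene onwards the genes were high in library 2, and few were higher in library 1. All 18 of 24 pachytene and diplotene genes in the table were at least 2-fold above every library of 6 months in library 2, and 7 in library 3 and 4 in library 1 were. Of 16 tested, none was called by edgeR, and DESeq2 called 4 of the 7 to which it gave an adjusted p (7.13% of all tested genes). With library 1 of 18 months left out, edgeR called 11 of 17 higher (8.7% of all genes then tested), with a filter that asked for counts in fewer libraries. The median log2 fold change of the list was 3.27, and 0.935 without library 2 of 18 months. TEX101, a germ cell surface glycoprotein, TDRD5 and TDRD6, of the chromatoid body and its precursors, were above in all 3 animals, and HSPA2 was above in libraries 1 and 2. TEX101 had FPKM values of 0.88, 1.33 and 0.16 at 6 months and 3.24, 459.7 and 35.6 at 18 months. HSPA2, a testis heat shock protein needed to finish meiosis, had 17.9, 23.1 and 18.7 at 6 months and 58.8, 296 and 29.6 at 18 months. PGK2, the phosphoglycerate kinase of meiotic and later germ cells, had counts of 0, 2 and 3 at 6 months and 8, 3116 and 5 at 18 months. The last of these was present in library 2 and had at most 8 counts in each of the other 5 libraries. CLGN, the testis chaperone calmegin, was abundant in every animal, with FPKM values of 260.4, 192 and 128 at 6 months and 306, 1551 and 303 at 18 months.

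Acrosome and other round spermatid genes were found in numbers in library 2. Of 31 genes, 27 were in the table, and all of them were at least 2-fold above every library of 6 months in library 2, 9 in library 3 and 0 in library 1. Few had counts in enough libraries to be tested, so that 6 passed the filter, and none of these was called by edgeR or limma voom. DESeq2 gave none of the 6 an adjusted p, so it could call none. Without library 1 of 18 months, edgeR called 9 of the 13 then tested higher (8.7% of all genes then tested). The filter then asked for counts in fewer libraries, so members could pass it through the libraries of 18 months in which they were high. The count of calls therefore follows in part from the filter and is given as a description. The median log2 fold change of the tested members was 3.25. It ranged from 0.434 without library 2 of 18 months to 8.50 with all 9 yak libraries in 1 fit, and the members that pass the filter can differ between these settings. ACR, the acrosomal protease acrosin, had counts of 1, 0 and 0 at 6 months and 0, 3788 and 16 at 18 months. ACRV1, an acrosomal vesicle protein, had 1, 0 and 0 at 6 months and 1, 4278 and 17 at 18 months. Both were abundant in library 2, at 16 and 17 counts in library 3, and at 0 or 1 in every other library. IZUMO1, the sperm protein that binds the egg, had counts of 0, 0 and 0 at 6 months and 0, 606 and 4 at 18 months. ACE, whose testis form is made by spermatids while its somatic form is made by endothelium, had FPKM values of 22, 12.7 and 12.9 at 6 months and 17.7, 567 and 10.2 at 18 months. SPACA1, an acrosome membrane protein, had 0.59, 0.5 and 0.2 at 6 months and 0.96, 228 and 2.87 at 18 months, and was the member of the 4 most abundant tested genes in which library 3 was also above 6 months, while ACRBP and ZPBP2, which bind acrosin and the zona pellucida, were above in library 2 alone. Summed over the list, FPKM was 19.8 to 32.5 at 6 months, 31.9, 3156 and 31.4 in libraries 1, 2 and 3 of 18 months, and 5480.4 to 6828 in the 3 yaks of 4 years.

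Elongating spermatid genes were abundant in library 2 and not in the other animals of 18 months. The table held 25 of 31, all at least 2-fold above every library of 6 months in library 2, 7 in library 3 and 1, TSSK6, in library 1, and 6 were tested with none called by edgeR or limma voom, and none had an adjusted p from DESeq2. Without library 1 of 18 months, 11 of the 14 then tested were called higher by edgeR (8.7% of all genes then tested). As for round spermatids, the filter then let in members through the libraries of 18 months in which they were high, so this count follows in part from the filter. The median log2 fold change of the tested members was 5.73. It ranged from 0.678 without library 2 of 18 months to 10.1 with no filter on low counts, where other members enter. TNP1 and TNP2 encode the transition proteins. TNP1 had counts of 1, 0 and 4 at 6 months and 0, 25254 and 47 at 18 months, and TNP2 had 0, 0 and 5 at 6 months and 0, 29589 and 49 at 18 months. PRM2, a protamine that packs sperm DNA, had 0, 0 and 0 at 6 months and 2, 7306 and 25 at 18 months. In library 3 these genes stood at 25 to 49 counts and in library 1 at 0 to 2, against 7306 or more in library 2. GAPDHS, the glycolytic enzyme of the sperm tail, had FPKM values of 0.66, 1.06 and 0.52 at 6 months and 1.73, 328 and 2.53 at 18 months. AKAP3 and AKAP4, anchoring proteins of the fibrous sheath, had 0.11, 0.2 and 0.19 at 6 months and 0.23, 54.5 and 0.41 at 18 months for the former and 1.02, 1.1 and 0.26 at 6 months and 0.49, 63.6 and 0.67 at 18 months for the latter. Library 2 was again the only animal far from the level of 6 months. The summed FPKM of the list was 11 to 18.9 at 6 months and 16.9, 11377 and 44.7 in libraries 1, 2 and 3 of 18 months. At 4 years it was 14436 to 18959.8, so that library 2 lay below the adult animals while library 1 was within the range of 6 months.

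Genes of the sperm flagellum followed the spermatid genes, with a few higher in every animal. Of 72 genes, 64 were in the table, 42 were tested and none was called by edgeR. DESeq2 called 5 of the 17 to which it gave an adjusted p higher (7.13% of all tested genes). Without library 1 of 18 months, edgeR called 25 of 50 higher (8.7% of all genes then tested). Here too the filter asked for counts in fewer libraries, so members could enter through the libraries of 18 months in which they were high. The median log2 fold change of the tested members was 3.08, and 0.56 without library 2 of 18 months. Of the 63 with at least 10 counts in any library, 61 were at least 2-fold above every library of 6 months in library 2, 17 in library 3 and 5 in library 1. RSPH14, a radial spoke gene, DNAH2 and DNAH8, dynein heavy chains, and TTC29 were separated upwards. DNAH8 had counts of 1, 8 and 7 at 6 months and 14, 5210 and 61 at 18 months. DNAH17, another dynein heavy chain, had 17, 19 and 24 at 6 months and 12, 8574 and 26 at 18 months, at 12 to 26 counts in every library but library 2. ODF2, of the outer dense fibres and also of centrosomes, had FPKM values of 8.16, 15.6 and 15.4 at 6 months and 11.8, 431 and 19 at 18 months. Together with ADAM2, CALR3 and PIWIL1, these 2 dynein genes had the widest ranges at 18 months among tested list members above the median level. ADAM2, a sperm surface protein of the fertilin complex, had counts of 12, 0 and 5 at 6 months and 3, 25107 and 66 at 18 months, a range of 12.7 on the log2 CPM scale. CALR3, a testis calreticulin of the endoplasmic reticulum, had 76, 113 and 85 at 6 months and 95, 31493 and 228 at 18 months. Despite log2 fold changes of 10.49 and 6.96, their edgeR adjusted p were 0.125 and 0.126, and without library 2 of 18 months the log2 fold change of DNAH17 turned from 7.25 to -0.0687.

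**Figure D4:**
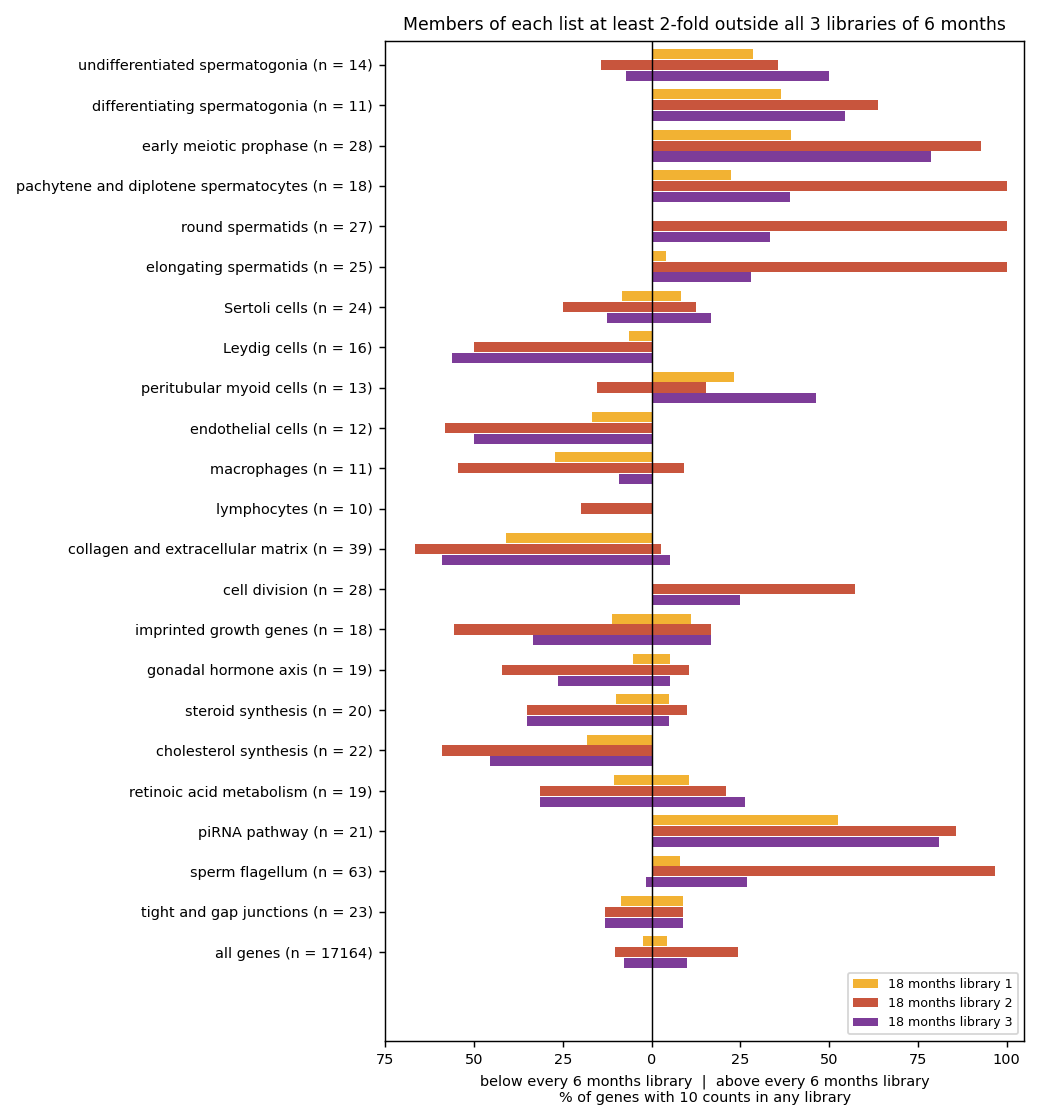
Percentage of the members of each gene list that lay at least 2-fold above (right) or below (left) all 3 libraries of 6 months, for each library of 18 months (bars), over members with at least 10 counts in any of the 6 libraries (n). In library 2 all 18 pachytene, 27 round spermatid and 25 elongating spermatid genes lie above. In library 1 the germ cell lists up to early meiosis and the piRNA pathway lie above in part, as do 4 of the 18 pachytene genes.

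**Figure D5:**
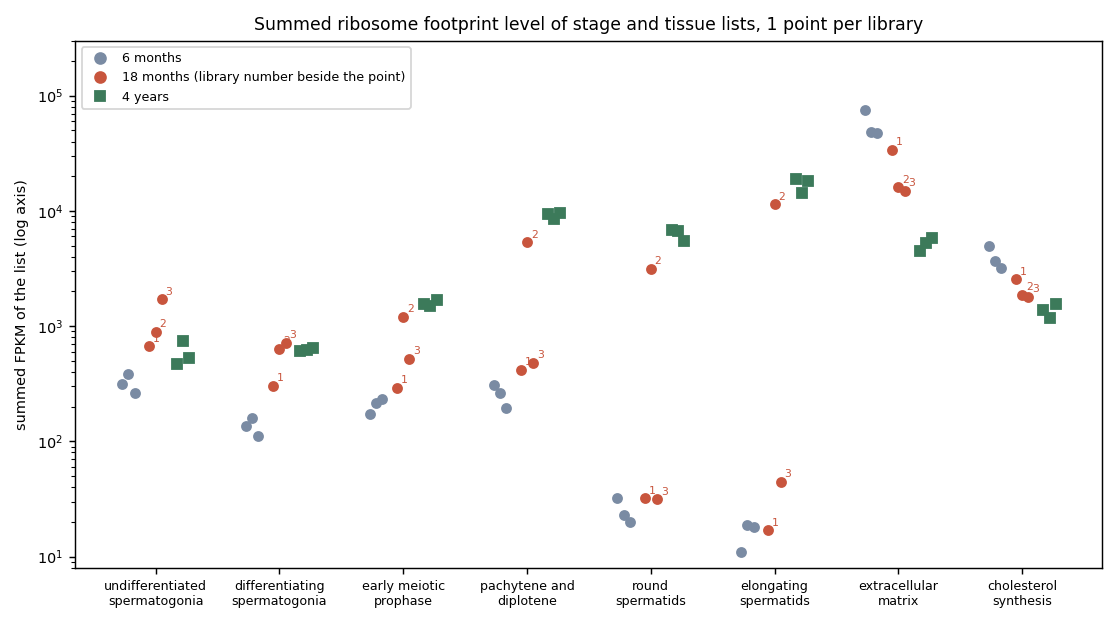
Summed FPKM of 8 gene lists (log axis), 1 point per library, for 6 months, 18 months (numbered by library) and 4 years. In the round and elongating spermatid lists library 2 of 18 months lies near, and below, the libraries of 4 years and libraries 1 and 3 lie near those of 6 months, while in the extracellular matrix list all 3 lie between the ages.

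Cell division genes were higher in library 2 and, for fewer members, in library 3. Of 33 genes, 28 were in the table and tested, 16 were at least 2-fold above every library of 6 months in library 2, 7 in library 3 and 0 in library 1. None was called by edgeR or separated in every pair. AURKA, a mitotic and meiotic kinase, had FPKM values of 0.88, 3.02 and 2.95 at 6 months and 5.16, 19.1 and 13.2 at 18 months without overlap between the groups (edgeR adjusted p = 0.0962), and PCNA, the sliding clamp of DNA replication, had 109, 195 and 240.2 at 6 months and 165, 226 and 194 at 18 months with overlap. CENPF, a kinetochore protein, had 1.47, 3.12 and 4.98 at 6 months and 4.29, 29.4 and 18.6 at 18 months, high in libraries 2 and 3. The helicase subunits MCM6 and MCM7 overlapped between the groups, with edgeR adjusted p of 0.195 and 0.594. Imprinted and growth genes, of which 18 of 22 were tested, had no edgeR call, and the median of their log2 fold changes was -0.91. IGF2BP1 and LIN28B, RNA-binding proteins of early germ cells and fetal tissue, were separated upwards, and PLAGL1, an imprinted zinc finger gene, and DCN were separated downwards. IGF2BP1 had counts of 25, 96 and 29 at 6 months and 252, 490 and 592 at 18 months (edgeR adjusted p = 0.0533). IGF2R, the receptor that clears IGF2, had FPKM values of 188, 136 and 117 at 6 months and 106, 44.4 and 54.3 at 18 months (edgeR adjusted p = 0.133), lower in every animal of 18 months. The most abundant members, GNAS, a G protein subunit, and PEG10, overlapped, with edgeR adjusted p of 0.627 and 0.975.

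Of the 25 lists, that of the extracellular matrix had the most members lower in all 3 animals. All 39 genes found of 41 were tested. None of the list was called by edgeR, since COL6A5, COL6A6 and FBLN7 are not in it, and 14 were separated downwards and 0 upwards. DESeq2 called 22 lower and 1 higher (5.43% and 7.13% of all tested genes), and limma voom called 23 and 2 (8.16% and 8.14%). Without library 1 of 18 months edgeR called 25 lower (8.08% of the genes then tested). The median log2 fold change was -1.50. COL1A1, of the fibrillar collagen I, had FPKM values of 245, 245 and 293 at 6 months and 138, 59.3 and 114 at 18 months (log2 fold change -1.64 ± 0.39, edgeR adjusted p = 0.0828). COL3A1, of collagen III, had 299, 303 and 328 at 6 months and 127, 57.7 and 124 at 18 months (log2 fold change -1.91 ± 0.39, edgeR adjusted p = 0.0637). In both genes library 2 was the lowest, and all 3 animals of 18 months were under the lowest of 6 months.

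SPARC, a collagen-binding glycoprotein, was the most abundant member, with FPKM values of 65635, 40758 and 39498 at 6 months and 29212, 14145 and 12286 at 18 months, and it made up most of the summed level of the list. Summed FPKM was 47028 to 74691 at 6 months, 33608, 15992 and 14832 in libraries 1, 2 and 3 of 18 months and 4456 to 5837 at 4 years. COL4A1, of the basement membrane collagen IV, had 1761, 1346 and 1062 at 6 months and 688, 180.3 and 163 at 18 months (edgeR adjusted p = 0.122), with library 1 between the others and the animals of 6 months, and COL4A2, its partner, had 842, 606 and 598 at 6 months and 354, 87.6 and 79.6 at 18 months in the same order. COL6A2, of collagen VI, had 820.2, 553 and 575 at 6 months and 628, 313 and 369 at 18 months with overlap. DCN, the proteoglycan decorin, had 1153, 1242 and 1283 at 6 months and 384, 137 and 253 at 18 months (edgeR adjusted p = 0.0588). LAMB2, a laminin chain, overlapped, with 90.7, 53.9 and 57.6 at 6 months and 124, 38 and 89.3 at 18 months, and VCAN, the proteoglycan versican, and TNC, the glycoprotein tenascin C, were highest in library 3. TNC had counts of 64, 134 and 42 at 6 months and 70, 159 and 954 at 18 months.

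Leydig cell genes were lower in libraries 2 and 3 for many members, while the Leydig hormone INSL3 overlapped between the ages. Of 22 genes, 17 were in the table and 16 were tested with no edgeR call, 1 was at least 2-fold below every library of 6 months in library 1, 8 in library 2 and 9 in library 3 (2.56%, 10.4% and 7.93% of all genes), and none was above in any of them. The median log2 fold change was -1.05, and DESeq2 called 7 lower (5.43% of all tested genes). INSL3, CYB5A and SRD5A1 had positive log2 fold changes, of 0.25, 0.09 and 0.06, and the other 13 tested members had negative ones. INSL3, a peptide hormone of mature Leydig cells, had FPKM values of 15927, 19729.7 and 23082 at 6 months and 36596, 20286 and 29734 at 18 months, with overlapping groups (edgeR adjusted p = 0.747). STAR, which carries cholesterol into mitochondria, had 1339.7, 2182 and 2147 at 6 months and 768, 312 and 344 at 18 months (log2 fold change -2.26 ± 0.49, edgeR adjusted p = 0.0681, DESeq2 adjusted p = 2.92e-05). CYP11A1, which cuts the side chain of cholesterol, had 245, 259 and 359 at 6 months and 142, 48.6 and 48.1 at 18 months (edgeR adjusted p = 0.0855). Both genes were lower in every animal of 18 months than in any of 6 months, STAR by at least 2-fold in every pair, with library 1 the closest to the younger group. SCARB1, the receptor that takes up cholesterol from high-density lipoprotein, had 608, 607 and 439 at 6 months and 425, 129 and 90.1 at 18 months in the same order (edgeR adjusted p = 0.178). GSTA1, a glutathione transferase, was highest in library 1 and overlapped (edgeR adjusted p = 0.438). LHCGR, the receptor of luteinizing hormone, had 64.5, 55.2 and 41.2 at 6 months and 43.7, 19.1 and 22.5 at 18 months (edgeR adjusted p = 0.14), and HSD3B, the next enzyme of the pathway, had 85.2, 107 and 166 at 6 months and 96.5, 47 and 55.6 at 18 months (edgeR adjusted p = 0.14). DDX4, PRM1, AMH, CYP17A1, HSD17B3, IGF2 and MKI67 were not analysed here.

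The wider list of steroid synthesis had 20 tested genes of 27, no edgeR call and a median log2 fold change of -0.62. HSD17B12, an enzyme of fatty acid elongation, overlapped (edgeR adjusted p = 0.511). HSD17B1, a dehydrogenase that acts on estrogens, was separated upwards but in library 2 for the most part, with counts of 0, 6 and 2 at 6 months and 14, 1283 and 13 at 18 months. Cholesterol synthesis genes were lower throughout. All 22 tested genes had a negative log2 fold change, with a median of -1.25 and a range of -2.44 to -0.77. None was called by edgeR, 14 were called lower by DESeq2 (5.43% of all tested genes) and 14 by limma voom (8.16%), and HMGCS1 alone was separated downwards (1.49%). HMGCS1, a synthase of the early pathway, had FPKM values of 333, 266 and 231 at 6 months and 42.2, 87.6 and 72 at 18 months (log2 fold change -2.44 ± 0.32, edgeR adjusted p = 0.0533). Library 1 was the lowest of its group, unlike in STAR and CYP11A1. In MSMO1, a late enzyme of the pathway, libraries 2 and 3 were the lowest, with FPKM values of 1148, 718 and 623 at 6 months and 566, 299.6 and 333 at 18 months. CYP51A1, a demethylase of the pathway, had 333, 227 and 154 at 6 months and 86.7, 177 and 70.9 at 18 months. In all, 4, 13 and 10 members of the list were at least 2-fold below every library of 6 months in libraries 1, 2 and 3.

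Sertoli cell genes were higher in some members and lower in others. Of 28 genes, 25 were in the table and 23 were tested, with no edgeR call and a median log2 fold change of -0.40, which was 0.03 with limma on log2(FPKM + 1). CLDN11, the claudin of the tight junctions between Sertoli cells, had FPKM values of 9.21, 18.4 and 4.71 at 6 months and 75.2, 574 and 749.6 at 18 months (log2 fold change 5.02 ± 0.90, edgeR adjusted p = 0.0588, DESeq2 adjusted p = 6.97e-10). It was separated upwards, and libraries 2 and 3 were several times above library 1. SOX9, the transcription factor of Sertoli cell identity, had 70.1, 117 and 107 at 6 months and 89.4, 56.9 and 128 at 18 months, with overlap. INHA, the alpha subunit of inhibin, had 6628, 5825 and 7288 at 6 months and 5964, 1807 and 2568 at 18 months (edgeR adjusted p = 0.231), so that in FPKM library 1 was at the level of 6 months and libraries 2 and 3 were below it. INHBB, an inhibin beta subunit, had 7.71, 4.69 and 4.77 at 6 months and 2.27, 11.1 and 7.2 at 18 months. FSHR, the receptor of follicle-stimulating hormone, had 63.1, 39.4 and 40.1 at 6 months and 51.1, 21.8 and 25.7 at 18 months, with overlap. CLU, the secreted chaperone clusterin, was the most abundant of the list, with 13312, 10277 and 7244 at 6 months and 15569.7, 8908 and 13753 at 18 months. PTGDS, a prostaglandin synthase, and TF, transferrin, overlapped as CLU did, with edgeR adjusted p of 0.842, 0.439 and 0.965.

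The gonadal hormone axis list, which shares several of these genes, had 16 tested genes of 22, no edgeR call and a median log2 fold change of -0.87. FST, the activin antagonist follistatin, was the 1 member separated upwards, with counts of 15, 37 and 29 at 6 months and 72, 64 and 71 at 18 months (edgeR adjusted p = 0.0893). INHBA, the inhibin beta A subunit, had FPKM values of 341, 258 and 318 at 6 months and 217, 112 and 110.3 at 18 months (edgeR adjusted p = 0.105), lower in every animal of 18 months. IGF1, the insulin-like growth factor, had counts of 522, 824 and 598 at 6 months and 272, 238 and 280 at 18 months, nearly equal in the animals of 18 months and below all those of 6 months, while its receptor IGF1R had an edgeR adjusted p of 0.129 (for IGF1 log2 fold change -1.21 ± 0.22, edgeR adjusted p = 0.0588). Of the tight and gap junction list, 22 of 26 genes were tested with no edgeR call and a median of -0.54, and CLDN1 was separated downwards as CLDN11 was upwards. CLDN1 had counts of 1040, 1145 and 488 at 6 months and 176, 65 and 87 at 18 months (edgeR adjusted p = 0.0596). CDH2, the cadherin between Sertoli and germ cells, had FPKM values of 293, 187 and 146 at 6 months and 143, 112 and 115 at 18 months (edgeR adjusted p = 0.144). The catenins CTNNB1 and CTNNA1 and the adhesion protein NECTIN2 overlapped, with edgeR adjusted p of 0.219, 0.258 and 0.231.

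Contractile genes of peritubular myoid cells were higher without overlap between the ages in 5 members (16.9% of all tested genes) and lower in 1 (16.6%). Of these, 2 were separated upwards by at least 2-fold in every pair (3.07%). All 13 genes of the list were tested, none was called by edgeR, and DESeq2 called 4 higher (7.13% of all tested genes), which were ACTA2, MYH11, TAGLN and TPM2. ACTA2, smooth muscle actin, had FPKM values of 32, 49.4 and 46.9 at 6 months and 167, 259 and 667 at 18 months (log2 fold change 2.72 ± 0.48, edgeR adjusted p = 0.0588, DESeq2 adjusted p = 9.19e-07). MYH11, smooth muscle myosin, had 4.8, 5.86 and 3.5 at 6 months and 21.4, 31.1 and 54.4 at 18 months (log2 fold change 2.53 ± 0.37, edgeR adjusted p = 0.0533). Both were highest in library 3, whereas CNN1, calponin, MYL9, a myosin light chain, and TPM1, a tropomyosin, overlapped. TPM1 had 483, 493 and 427 at 6 months and 492, 424 and 620.4 at 18 months. The median of the list, 0.87, was 0.06 without library 3 of 18 months.

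Among retinoic acid genes RDH10 was called, and the rest were divided. Of 24 genes, 21 were in the table and 19 were tested, and the median of their log2 fold changes was -0.33, and 0.04 with library size alone. CYP26B1, which degrades retinoic acid and is made by somatic cells of the testis, had FPKM values of 24.8, 20.8 and 22.7 at 6 months and 113, 68.9 and 97.5 at 18 months (log2 fold change 1.69 ± 0.29, edgeR adjusted p = 0.0553, DESeq2 adjusted p = 1.28e-05). All animals of 18 months were above all those of 6 months, with library 1 the highest. CRABP1, a cytosolic carrier of retinoic acid, had 12.6, 26.2 and 14.9 at 6 months and 61, 128 and 172 at 18 months and was separated upwards (edgeR adjusted p = 0.0533). STRA6, the membrane receptor for retinol uptake, had 173, 84.1 and 90.3 at 6 months and 53.7, 11 and 8.75 at 18 months (edgeR adjusted p = 0.124), and ALDH1A2, which makes retinoic acid, had 57.2, 67.5 and 81.3 at 6 months and 53.4, 84.1 and 69.4 at 18 months (edgeR adjusted p = 0.299). CRABP2, the second carrier, had 1206, 1209.9 and 1419 at 6 months and 1060.1, 682 and 843 at 18 months (edgeR adjusted p = 0.123). RBP4, the retinol carrier of blood, and RDH11, a retinol dehydrogenase, overlapped, with edgeR adjusted p of 0.17 and 0.264.

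Endothelial markers were lower in most of the animals of 18 months. All 12 genes found of 15 had a negative log2 fold change, with a median of -1.30, and none was called by edgeR while DESeq2 called 8 lower (5.43% of all tested genes). TEK, the angiopoietin receptor, was separated downwards, with FPKM values of 3.08, 3.46 and 3.38 at 6 months and 0.8, 1.5 and 1.02 at 18 months (edgeR adjusted p = 0.0533), and CDH5, the cadherin of endothelial junctions, had 15, 8.85 and 13.1 at 6 months and 4.79, 4.47 and 5.37 at 18 months (edgeR adjusted p = 0.0588). KDR, a receptor of vascular endothelial growth factor, ENG, endoglin, and CLDN5, a claudin of vessels, had edgeR adjusted p of 0.0596, 0.0887 and 0.53, with overlap in CLDN5. Of 10 tested macrophage genes of 13, LYVE1 was separated downwards, and C1QA, a complement component, had 119.8, 172 and 216 at 6 months and 128, 66.8 and 136 at 18 months (edgeR adjusted p = 0.156). C1QB, C1QC and CSF1R, the receptor of macrophage colony-stimulating factor, were lowest in library 2, with edgeR adjusted p of 0.253, 0.155 and 0.125. The 9 tested lymphocyte genes of 13 had no edgeR call and none separated, with PTPRC, the common leukocyte antigen, at 22, 32.9 and 52.4 at 6 months and 32.6, 16 and 27.7 at 18 months. CD3D, LCK and ZAP70, of T cell signalling, overlapped, with edgeR adjusted p of 0.419, 0.208 and 0.855.

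Markers of blood and of tissue beside the testis were low for most members. Of the red blood cell list, 6 of 10 genes were in the table, their summed FPKM was 15.6 to 17.7 at 6 months and 18.3 to 25 at 18 months, and ALAS2, HBM and SLC4A1 had 0 or 1 counts in every library. Of the epididymis and rete testis list, 8 of 12 were in the table, and CRISP1 and WFDC8 had at most 2 counts. HBA, a globin chain, had counts of 8, 23 and 4 at 6 months and 31, 39 and 54 at 18 months, and GYPC, a glycophorin that other cells also make, had 223, 330 and 313 at 6 months and 295, 145 and 280 at 18 months. PAX8 had 66, 98 and 49 at 6 months and 18, 14 and 25 at 18 months and CDH1 had 15, 27 and 12 at 6 months and 40, 42 and 21 at 18 months, at under 100 counts in each library. EPCAM, which germ cells also make, had FPKM values of 6.84, 16.2 and 3.48 at 6 months and 43.1, 350.4 and 43.1 at 18 months. The adipocyte list had 5 of 6 genes, a summed FPKM of 13.6 to 16.1 and 5.69 to 22.9, and LEP at 0 or 1 counts in every library. PLIN4, a perilipin that steroid-producing cells can also make, had FPKM values of 14.3, 11.9 and 10.9 at 6 months and 6.93, 1.87 and 1.07 at 18 months (edgeR adjusted p = 0.133), and FABP4, PLIN1 and CIDEC stayed under 200 counts, with the first pair highest in library 2. Their part in the results above was not tested.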

How the data were processed

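Ribo-seq libraries of testis were analysed from 3 yaks of 6 months and 3 of 18 months. The authors removed rRNA reads with Bowtie2, aligned the rest with STAR to a yak genome, and estimated counts in coding sequences with RSEM. The authors deposited the expected counts without normalization, and the deposited FPKM divides them by gene length and library total. The deposited log2 fold changes, p-values and FDR of the authors' own comparisons were not used. The table gives 13660 genes a symbol, and 66 list genes were named by a unique description and 2 by an older symbol. Of 549 genes in 25 lists, 467 were found. Positions and sequences were not analysed here.

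Counts were rounded, and after a filter on low counts (filterByExpr) and TMM scaling they were fitted with edgeR 4.0.16 in R 4.3.3 (quasi-likelihood, Benjamini-Hochberg over all tested genes). The standard error was taken as the log2 fold change over the square root of F. Log2 CPM per library used a prior count of 0.5. A gene was above in a library only with 10 counts there, and below only with 10 counts in each library of 6 months. Groups came from the labels. Each library was 1 animal, so animal and library preparation cannot be told apart. The chi-square of counts per degree of freedom, between libraries of one age, ranged from 59.3 to 336, so no library repeated another. The scripts were tested on simulated counts with known changes and the same spread at both ages, unlike these data. The named genes were a set of key genes, the called genes separated in every pair, up to 4 members of each list (called, then of highest level), and the 5 list members with the widest range at 18 months. All others were chosen after their values were seen. A few genes that this rule names are not reported here. The members and lists were chosen with earlier results of these data known. Alternatives were DESeq2 1.42.0, voom with sample quality weights in limma 3.58.1, other scalings, no filter, all 9 yak libraries, limma on log2 FPKM with a pseudocount of 1 or 0.1, a block for replicate number, and leaving out each library. With a library left out, the filter asked for counts in fewer libraries, so more genes were tested. Counts of separated genes under other settings were added after seeing the data. Figures were drawn with matplotlib 3.10.9.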

Additional observations from a re-analysis of the deposited data

How the results depend on the processing

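The number of calls moved with the test and with nearly every setting of edgeR, which gave 3 higher and 7 lower in the main fit. Other tests gave 1061 and 807 (DESeq2, 295 genes without an adjusted p), 1210 and 1213 (limma voom), 101 and 69 (limma on log2(FPKM + 1)), and 306 and 128 (on log2(FPKM + 0.1)). Within edgeR there were 104 and 49 with library size alone, 79 and 51 with the upper quartile, 1 and 2 with no filter, and 705 and 415 with all 9 yak libraries in 1 fit. Relative log expression kept 3 and 7. Leaving out a library gave 0 to 1344 higher and 0 to 1249 lower. Of the calls that were also separated in every pair, the counts were 396 and 210 (DESeq2), 421 and 204 (voom), 104 and 49 (library size), 78 and 50 (upper quartile), 1 and 2 (no filter), 417 and 177 (all 9 libraries), 92 and 66 (FPKM + 1), and 236 and 111 (FPKM + 0.1), and 0 to 977 and 0 to 836 without a library. All 10 genes were called under each of these settings except no filter (3 of them), without any 1 of the libraries of 6 months (0) and without library 3 of 18 months (1).

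Genes separated in every pair, called or not, numbered 528 to 1229 higher and 277 to 956 lower without a library, and library size alone left 136 lower. With library size alone, genes below in library 2 were 897, and those above and below in library 3 were 2719 and 799. The log2 fold change of DNAH17 ranged from -0.0687 to 7.82 without a library. The cause was not tested. List medians changed sign in Sertoli cells, retinoic acid metabolism and adipocytes alone, and limma on log2(FPKM + 1) brought steroid synthesis to -0.16. Medians of round and elongating spermatids kept their sign but ranged from 0.434 to 8.50 and from 0.678 to 10.1.

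The deviations of same-numbered libraries correlated at 0.03 to 0.058, and none matched its own number best. The best match with another number was 0.064 to 0.124. With 3 libraries of each age and correlations this low, the check cannot settle whether the replicate numbers pair the animals. With the replicate number as a block, 235 genes were higher and 303 lower, of which 178 and 116 were separated in every pair.

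Of the round and elongating spermatid genes, 6 of 27 and 6 of 25 passed the filter on low counts, so most have no test.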
